A study of Mus musculus with 4 samples.

Results

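Opcml, Astn2, Lingo2, Cntn5, Sdk1, Rims2, Nrxn3, Lsamp, Dcc and Anks1b are 10 genes best known from neurons, where their products act in cell adhesion, axon guidance and the synapse. All 10 were found in the 4 single-cell matrices of mouse glomeruli, among 55488 genes listed. They were chosen because earlier results of these same data showed them to differ between genotypes or libraries within a cell type. The ratios between libraries given below are therefore descriptions, and they support nothing by themselves. The comparisons ask which glomerular cells hold each transcript and how its level differs between wild-type mice (WT) and mice of the Col4a5 G5X line (AS), a model of Alport syndrome. Col4a5 is X-linked and encodes a chain of type IV collagen of the glomerular basement membrane. The groups were WT and AS at 5 weeks, an age at which the submitters saw no proteinuria, and WT and AS at 8 weeks, when proteinuria was mild. Each group had 1 library, and the strain, sex and number of animals behind a library are not given in the sources used here. The tissue label names embryonic kidney, whereas the titles give 5 and 8 weeks, and the titles are followed here.

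Neuronal adhesion proteins sit in or on the cell membrane and bind partners on a neighbouring cell or in the matrix. In the nervous system they set which cells stick together, where axons grow and where a synapse forms. The glomerulus, the filter of the kidney, uses related proteins: the slit diaphragm between podocytes, the epithelial cells around the capillaries, is built from immunoglobulin-type adhesion molecules, and podocyte processes share cytoskeletal and vesicle proteins with neurons. Mesangial cells are the contractile pericyte-like cells between the capillary loops, and renin cells are hormone-making mural cells of the afferent arteriole.

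By role, Opcml and Lsamp belong to the IgLON family of lipid-anchored immunoglobulin-type proteins. Cntn5 is a contactin, also lipid-anchored, and Sdk1 (sidekick 1) is a large transmembrane protein of immunoglobulin and fibronectin repeats that binds itself on the next cell. Lingo2 carries leucine-rich repeats, and Nrxn3 is a neurexin, a presynaptic organiser that binds neuroligins and other partners. Dcc is a receptor for netrin, and Astn2 (astrotactin 2) acts in the migration of neurons along glia. Rims2 and Anks1b act inside the cell: Rims2 is a scaffold of the presynaptic release site, and Anks1b is a postsynaptic scaffold with ankyrin repeats.

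All 10 are very long genes. Their median span was 1118 kb in GENCODE M21 (GRCm38), against 17.4 kb for the 21951 protein-coding genes. A span of 500 kb or more was found for 9 of the 10 and for 1.05% of protein-coding genes. Rims2, at 486 kb, was the exception. Opcml lies at chr9:27790775-28925410 on the plus strand, Astn2 at chr4:65380803-66404611 on the minus strand and Lingo2 at chr4:35706647-36951747 on the minus strand. Cntn5 lies at chr9:9660891-10904775 on the minus strand, Nrxn3 at chr12:88722876-90334935 on the plus strand and Sdk1 at chr5:141241490-142215586 on the plus strand. Lsamp lies at chr16:39984361-42181679, Rims2 at chr15:39198261-39684372 and Anks1b at chr10:89873509-90973300, all on the plus strand. Whether reads in introns were counted is not given in the sources used here. Within Astn2 lies the coding gene Trim32 on the opposite strand, and the other genes overlap only noncoding or pseudogene models.

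RefSeq start windows (GRCm38.p6, 250 bases before to 50 after a start) were found for 8 of the 10 genes, and Dcc was not searched. Of those 8 genes, 4 are shown, 1 or 2 for each glomerular class that results turn on. The stretches below show sequence before a RefSeq start for Astn2 and Lingo2 (podocyte-like cells), Cntn5 (mesangial-like cells) and Sdk1 (endothelial-like cells). Each is the part before the RefSeq start that lies in no GENCODE M21 exon, written 5′ to 3′ on the gene's strand, with CpG dinucleotides in capitals. They lie at chr4:66404612-66404733 (Astn2, minus strand), chr4:35845205-35845454 (Lingo2, minus), chr9:10904776-10905025 (Cntn5, minus) and chr5:141241284-141241489 (Sdk1, plus). The Lingo2 stretch lies within the gene's GENCODE span, before an internal RefSeq start, and not upstream of the gene.
Astn2: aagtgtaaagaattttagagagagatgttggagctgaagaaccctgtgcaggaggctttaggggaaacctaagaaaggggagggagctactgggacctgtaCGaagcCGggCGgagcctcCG
Lingo2: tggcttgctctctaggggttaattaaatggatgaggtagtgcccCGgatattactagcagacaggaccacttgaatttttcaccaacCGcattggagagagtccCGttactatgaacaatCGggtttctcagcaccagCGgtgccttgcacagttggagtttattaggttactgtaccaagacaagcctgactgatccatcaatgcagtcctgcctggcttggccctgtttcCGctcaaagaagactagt
Cntn5: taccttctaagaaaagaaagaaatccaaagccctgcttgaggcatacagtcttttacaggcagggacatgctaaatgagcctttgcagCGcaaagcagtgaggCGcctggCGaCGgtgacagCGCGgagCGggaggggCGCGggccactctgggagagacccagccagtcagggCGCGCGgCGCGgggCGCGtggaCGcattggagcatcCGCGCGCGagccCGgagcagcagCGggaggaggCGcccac
Sdk1: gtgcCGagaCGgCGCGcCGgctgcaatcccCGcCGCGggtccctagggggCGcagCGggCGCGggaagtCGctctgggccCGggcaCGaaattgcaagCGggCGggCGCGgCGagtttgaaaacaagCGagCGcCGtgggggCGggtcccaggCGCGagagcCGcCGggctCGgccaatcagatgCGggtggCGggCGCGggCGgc
The genes differ in base composition at these starts. Whole 300-base windows held 54 CpG at Sdk1, 26 at each of 2 overlapping Cntn5 windows, 23 at Astn2 and 9 at Opcml, against a median of 7 over 32851 windows. At Lingo2 the window shown held 6 and the window at its other start held 0, both at internal starts within the gene's GENCODE span. The WT1 core GCGTGGG, searched on both strands, was found in the Cntn5 windows alone among these genes and in 5.04% of all windows. The homeodomain core TAATTA was found in the Lingo2 window shown and in 5.29% of all windows. These matches describe letters, not binding.

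The 4 libraries held 74356581 to 126118422 UMIs (unique molecular identifiers, counted transcript molecules) in 6604 to 7963 barcodes. Between 13 and 18 barcodes were shared by any 2 libraries, at most 0.24% of the smaller one. After filtering, 24973 cells fell into 26 clusters. A class is called "-like" from its markers, and every class compared here held all or nearly all of its own. All 10 podocyte markers and all 10 mesangial markers reached 20 CPM (counts per 1e6 UMIs of the class) in their own class in every library, as did 11 or 12 of the 12 glomerular endothelial markers. Podocyte-like cells numbered 1494 to 2743 per library, glomerular endothelial-like cells 977 to 3192, mesangial-like cells 280 to 1259 and renin cell-like cells 60 to 380. The WT library at 8 weeks stands apart: it had the fewest mesangial-like cells (280) and endothelial-like cells (977) and the most renin cell-like cells (380). The podocyte-like cells also sat in different clusters from library to library, so a ratio between libraries may compare different podocyte clusters. Levels are UMIs summed over the cells of a class and divided by the class total, in CPM. Intervals are 95% and cover counting error only. Libraries of a group are not replicated, so no test was run, and genotype cannot be told apart from any other difference between 2 libraries.

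The defining markers of nerve cells were at or near 0 in podocyte-like cells. Of 8 neuronal markers, none reached 20 CPM in podocyte-like cells of any library, and their summed level there was 1.32 to 5.58 CPM. In mesangial-like cells the sum was 17.7 to 36.5 CPM, most of it Uchl1 (14.97 to 29.3 CPM). In glomerular endothelial-like cells the sum was 72.5 to 185 CPM, again led by Uchl1 (56.3 to 143 CPM). Of 7 Schwann or glial markers none reached 20 CPM in these 3 classes.

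Each transcript had its own distribution over the glomerulus. By the mean over libraries, Opcml, Astn2 and Lingo2 were highest in podocyte-like cells and Nrxn3 and Cntn5 in mesangial-like cells. For Opcml this order held in the WT libraries only. In AS it was higher in renin cell-like cells (70.3 CPM at 5 weeks and 58.3 CPM at 8 weeks) than in podocyte-like cells (47.9 and 18.5 CPM). Lsamp was highest by this mean in renin cell-like cells. Dcc was shared by renin cell-like and mesangial-like cells, and Anks1b by mesangial-like and podocyte-like cells. Sdk1 was found in glomerular endothelial-like cells, in immune cells and in an unnamed cluster led by Pcp4. Its mesangial-like level ran from 9.59 to 87.1 CPM. The top of that range, WT at 8 weeks, lay above the glomerular endothelial-like level of the same library (51.3 CPM). Rims2 was highest in the unnamed cluster. The Pcp4-led cluster holds both parietal epithelial and podocyte markers (614 to 2333 CPM and 5358 to 19140 CPM in sum) and was not named.

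**Figure D1:**
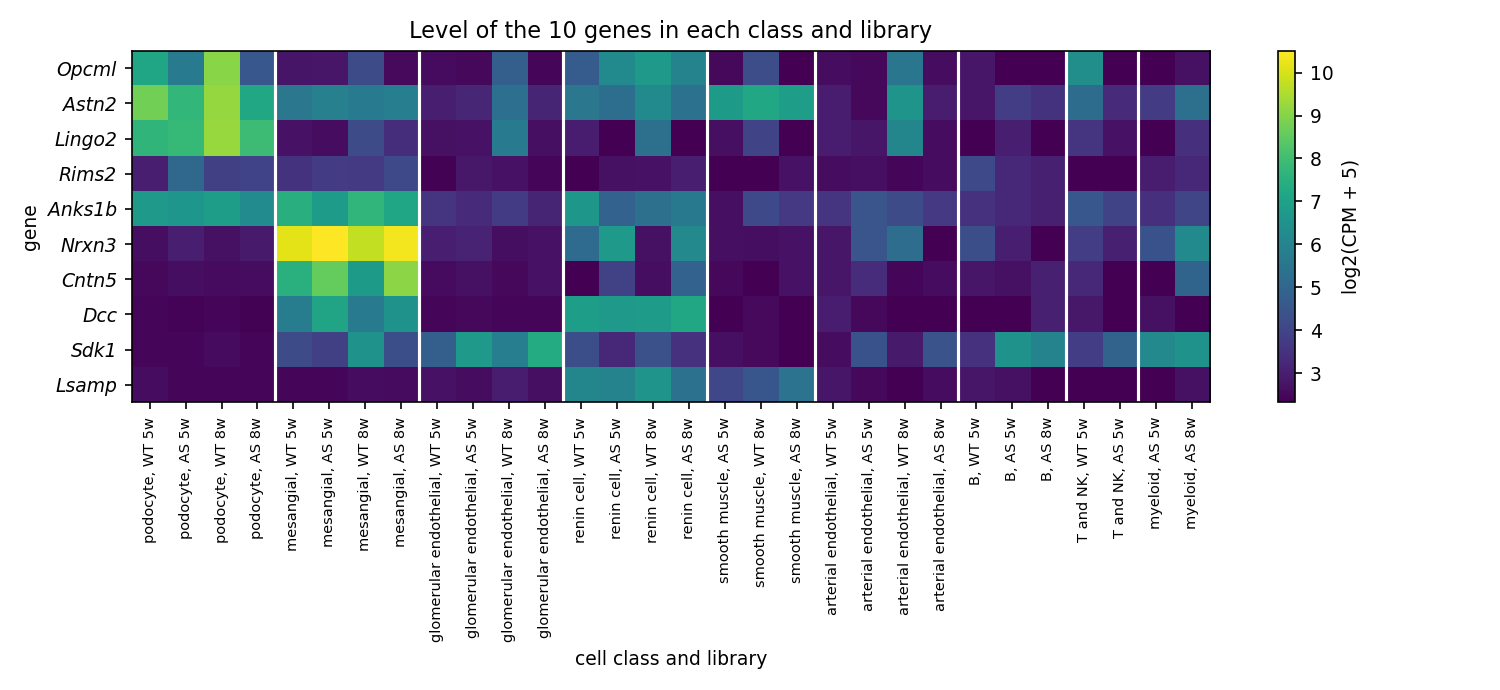
Level of the 10 genes as log2(CPM + 5), by colour, in each named class (white lines part the classes) and library with at least 50 cells of that class. Astn2 and Lingo2 are bright in the 4 podocyte-like columns, Nrxn3 and Cntn5 in the mesangial-like columns, and Lsamp and Dcc in the renin cell-like columns. Opcml is bright in the podocyte-like columns of WT and dimmer in those of AS (47.9 CPM at 5 weeks and 18.5 CPM at 8 weeks).

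Opcml in podocyte-like cells was at 140.1 CPM in WT against 47.9 CPM in AS at 5 weeks, then at 531 CPM in WT against 18.5 CPM in AS at 8 weeks. Both AS libraries lay below both WT libraries, and the WT libraries themselves lay 3.70-fold apart. On the log2(CPM + 5) scale, on which all ratios here are given, the ratio of AS to WT was -1.46 (interval -1.54 to -1.38) at 5 weeks and -4.52 (-4.58 to -4.45) at 8 weeks. Set against the other WT library, the ratios were -3.34 and -2.63, so the sign did not depend on which WT library was used, whereas the size did.

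The level of Opcml also differed among podocyte clusters within a library. Clusters made without the 10 genes showed it at 780 CPM in WT against 351 CPM in AS at 8 weeks within the cluster led by Vtcn1 and Gja3, and at 311 and 33.1 CPM within the cluster led by R3hdml and Gabra4. At 5 weeks those clusters held 147 CPM in WT against 78.9 CPM in AS, and 46.8 CPM in WT against 42.9 CPM in AS. Intervals of that last pair overlap (36.6 to 58.9 and 40.1 to 45.9 CPM). A further cluster, led by Opcml, Lingo2 and Astn2 although they were not used to make it, held most WT podocyte-like cells at 8 weeks (2340 cells, 544 CPM of Opcml) and 70 AS cells (179 CPM). In the cluster led by Rbfox1 and Xkr4, which holds 1350 AS podocyte-like cells at 8 weeks, Opcml was at 6.69 CPM. Thus AS was lower within each of the 3 clusters shared at 8 weeks and clearly so in 1 of the 2 shared at 5 weeks, beside the uneven share of clusters between libraries.

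A UMI of Opcml was seen in few podocyte-like cells for its mean level. A cell without a UMI may still express the gene. Cells were thinned to 5000 UMIs each for this comparison, which left out 70 to 281 shallower podocyte-like cells per library. A UMI of Opcml was then found in 14.9% of WT against 7.23% of AS cells at 5 weeks, and in 31.0% of WT against 2.79% of AS cells at 8 weeks. Positive cells held a mean of 4.46, 3.70, 8.57 and 4.33 UMIs in the same order, and 1 WT cell at 8 weeks held 88. Without thinning the shares were 21.6%, 11.2%, 36.2% and 5.31%. The thinned share in glomerular endothelial-like cells, taken as background, was 0.38%, 0.23%, 2.49% and 0.40%, at median depths of 5746 to 6744 UMIs before thinning against 14356 to 20253 in podocyte-like cells. In the WT library at 8 weeks, 10% of the cells held 73.1% of the Opcml UMIs. Of 143 other genes with a mean within 1.25-fold of that of Opcml there, none was found in a smaller share of cells, and their median share was 90.3%. The same was true in the other 3 libraries, over 741 to 1329 genes. At 8 weeks both the share of positive cells and the count per positive cell (8.57 in WT against 4.33 in AS) were thus lower in AS. The AS count at 8 weeks lay near those of the 5-week libraries (4.46 in WT and 3.70 in AS).

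Outside podocyte-like cells, Opcml was at 21.1 CPM in WT against 70.3 CPM in AS renin cell-like cells at 5 weeks, and at 101 CPM and 58.3 CPM at 8 weeks. These levels rest on 16 to 429 UMIs. The order of the libraries there is not that seen in podocyte-like cells, and AS lay above WT at 5 weeks and below it at 8 weeks. Lingo2, another podocyte gene, was at 35.6 CPM in the renin cell-like cells of that 8-week WT library and at 0 to 2.63 CPM in the others. Astn2, also a podocyte gene, was at 68.6 CPM there and at 33.7 to 42.1 CPM in the other libraries. The part of podocyte RNA in the Opcml levels was not tested. Over 30 points (1 per named class and library), the genes whose log2(CPM + 5) followed Opcml most closely were Ackr3 (Pearson r 0.87), Samd5 (0.86) and Sgip1 (0.85). Such correlations, here and below, are descriptions: the points share classes and libraries.

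Astn2 in podocyte-like cells was at 427 CPM in WT against 209.5 CPM in AS at 5 weeks, then at 588 CPM in WT against 143 CPM in AS at 8 weeks. Again both AS libraries lay below both WT libraries, here with the WT libraries 1.37-fold apart. The ratio of AS to WT was -1.01 (-1.05 to -0.97) at 5 weeks and -1.998 (-2.03 to -1.96) at 8 weeks. Within the Vtcn1-led cluster Astn2 was at 420.1 CPM in WT against 243 CPM in AS at 5 weeks, with 640.2 and 264 CPM at 8 weeks. Within the R3hdml-led cluster it was at 354 CPM in WT against 206 CPM in AS at 5 weeks, with 485 and 214 CPM at 8 weeks. In the cluster led by Opcml it was at 599 CPM in WT against 301 CPM in AS at 8 weeks. All 5 of these pairs had AS below WT.

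A UMI of Astn2 was seen in a larger share of cells than one of Opcml in every library. After thinning, a UMI was seen in 75.9% of WT against 54.1% of AS cells at 5 weeks, and in 85.1% of WT against 43.9% of AS cells at 8 weeks. Positive cells held a mean of 2.74 UMIs in WT against 1.89 in AS at 5 weeks, then 3.33 in WT against 1.84 in AS at 8 weeks. Without thinning the shares were 91.4%, 80.3%, 94.4% and 73.3%, and glomerular endothelial-like cells held a thinned share of 1.37% to 5.80%. Both the share of cells and the count per positive cell were thus lower in AS at each age. Smooth muscle-like cells held Astn2 at 104 to 143 CPM in the 3 libraries with enough cells, and mesangial-like cells at 42.5 to 54.6 CPM with no genotype ratio past 1.5-fold. Closest to Astn2 over the 30 points were P3h2 (r 0.94), C1qtnf7 (0.92) and Trabd2b (0.92).

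Lingo2 in podocyte-like cells was at 199.6 CPM in WT against 217 CPM in AS at 5 weeks, then at 607 CPM in WT against 238 CPM in AS at 8 weeks. Over the whole class the WT library at 8 weeks alone stood apart, and the other libraries lay close together. The ratio of AS to WT was 0.12 (0.07 to 0.17) at 5 weeks and -1.33 (-1.36 to -1.30) at 8 weeks. With the 5-week WT library in place of the 8-week one it was 0.25, so the 8-week difference in the whole class rests on 1 library. Within WT, the ratio of 8 to 5 weeks was 1.58. Clusters gave a mixed picture. In the Vtcn1-led cluster, with 55 AS cells at 8 weeks, Lingo2 was at 601 CPM (568 to 634) in WT against 535 CPM (469 to 608) in AS at that age, and at 208 and 248 CPM at 5 weeks. In that cluster both 8-week libraries were high and their intervals overlap. In the R3hdml-led cluster the 8-week levels were 529.5 CPM in WT against 287 CPM in AS. In the cluster led by Opcml, with 2340 WT and 70 AS cells at 8 weeks, they were 620 CPM (611 to 628) in WT against 367 CPM (326 to 412) in AS. In the Rbfox1-led cluster, which holds most AS cells at 8 weeks, the AS level was 213 CPM.

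Lingo2, after thinning, was seen in under 50% of podocyte-like cells in each library. The thinned share was 21.6% in WT against 27.2% in AS at 5 weeks, and 44.2% in WT against 26.8% in AS at 8 weeks. Positive cells held a mean of 4.42, 3.81, 6.61 and 4.50 UMIs. Unthinned shares were 27.7%, 35.3%, 50.3% and 35.9%, and the thinned share in glomerular endothelial-like cells was 0.49% to 3.98%. Of 128 to 482 genes at a like mean in each library, at most 1 had a smaller share of cells. In the WT library at 8 weeks that gene was Opcml itself, whose share was 31.0%. Lingo2 was found in 57.9% of Opcml-positive and 38.0% of Opcml-negative cells there, and in 68.9% and 25.6% in AS at 8 weeks. At 5 weeks the values were 37.2% and 18.8% in WT, and 55.3% and 25.0% in AS. The correlation over cells stayed weak (r 0.19 to 0.25 in log counts), and cells differ in cluster as well. Lingo2 was followed most closely by Wif1 (r 0.96), Fa2h (0.96) and Erbb4 (0.95).

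Rims2 was low in podocyte-like cells, at 3.12 CPM in WT against 28.3 CPM in AS at 5 weeks, then at 9.67 CPM in WT against 10.8 CPM in AS at 8 weeks. Only the AS library at 5 weeks stood above the others. Its ratio to WT was 2.03 (1.89 to 2.17) at 5 weeks and 1.18 against the 8-week WT library. At 8 weeks no library reached the floor of 20 CPM, and the ratio there was not counted. Within the 3 podocyte clusters with at least 50 AS cells at 5 weeks, Rims2 was at 23.3, 30.3 and 30.1 CPM, and in the WT library of that age it was at 1.30 to 3.18 CPM. The 5-week difference was present in both clusters that the WT and AS libraries shared. A thinned cell held a UMI in 1.19% of WT against 11.5% of AS podocyte-like cells at 5 weeks, and in 3.66% and 4.43% at 8 weeks. Unthinned, these shares were 2.60%, 27.9%, 7.88% and 14.96%. Among glomerular endothelial-like cells, which hold Rims2 at 0.21 to 2.14 CPM, the highest value was also in the AS library at 5 weeks. The Pcp4-led cluster held 61.0 CPM in AS at 5 weeks, 26.2 CPM in WT at 8 weeks and 30.2 CPM in AS at 8 weeks. For Rims2 the closest were Cyp1b1 (r 0.79), Pxdc1 (0.78) and Lpin2 (0.76).

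Anks1b, the postsynaptic scaffold, differed less between podocyte-like libraries. It was at 103 CPM in WT against 94.0 CPM in AS at 5 weeks, then at 112 CPM in WT against 72.6 CPM in AS at 8 weeks. The mesangial-like level was 169 CPM in WT against 111 CPM in AS at 5 weeks, then at 203 CPM in WT against 134 CPM in AS at 8 weeks. In each library the mesangial-like level was the higher, and the ranges of the 2 classes overlap only across libraries. The ratio of AS to WT was -0.13 and -0.59 for podocyte-like cells, 5 weeks first, while mesangial-like cells gave -0.59 and -0.58. The last 3 ratios lie at the line for 1.5-fold, on either side of it, so which of them counts as past it has no weight. AS lay below WT in these 4 comparisons of whole classes. Anks1b in renin cell-like cells was at 94.8 CPM in WT against 24.9 CPM in AS at 5 weeks, on 72 and 17 UMIs. That ratio was -1.74 (-2.439 to -1.055). At 8 weeks the renin cell-like levels were 35.8 CPM in WT against 44.99 CPM in AS, a ratio of 0.293 (-0.166 to 0.736). In the Pcp4-led cluster at 8 weeks AS lay above WT, at 39.0 CPM in WT against 113 CPM in AS, a ratio of 1.42. Of 8163 genes past the floor there, 26.2% were past 1.5-fold, 8.35% in the higher direction. Closest to Anks1b were Mrc2 (r 0.93), Ptpn13 (0.93) and Hhat (0.91).

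**Figure D2:**
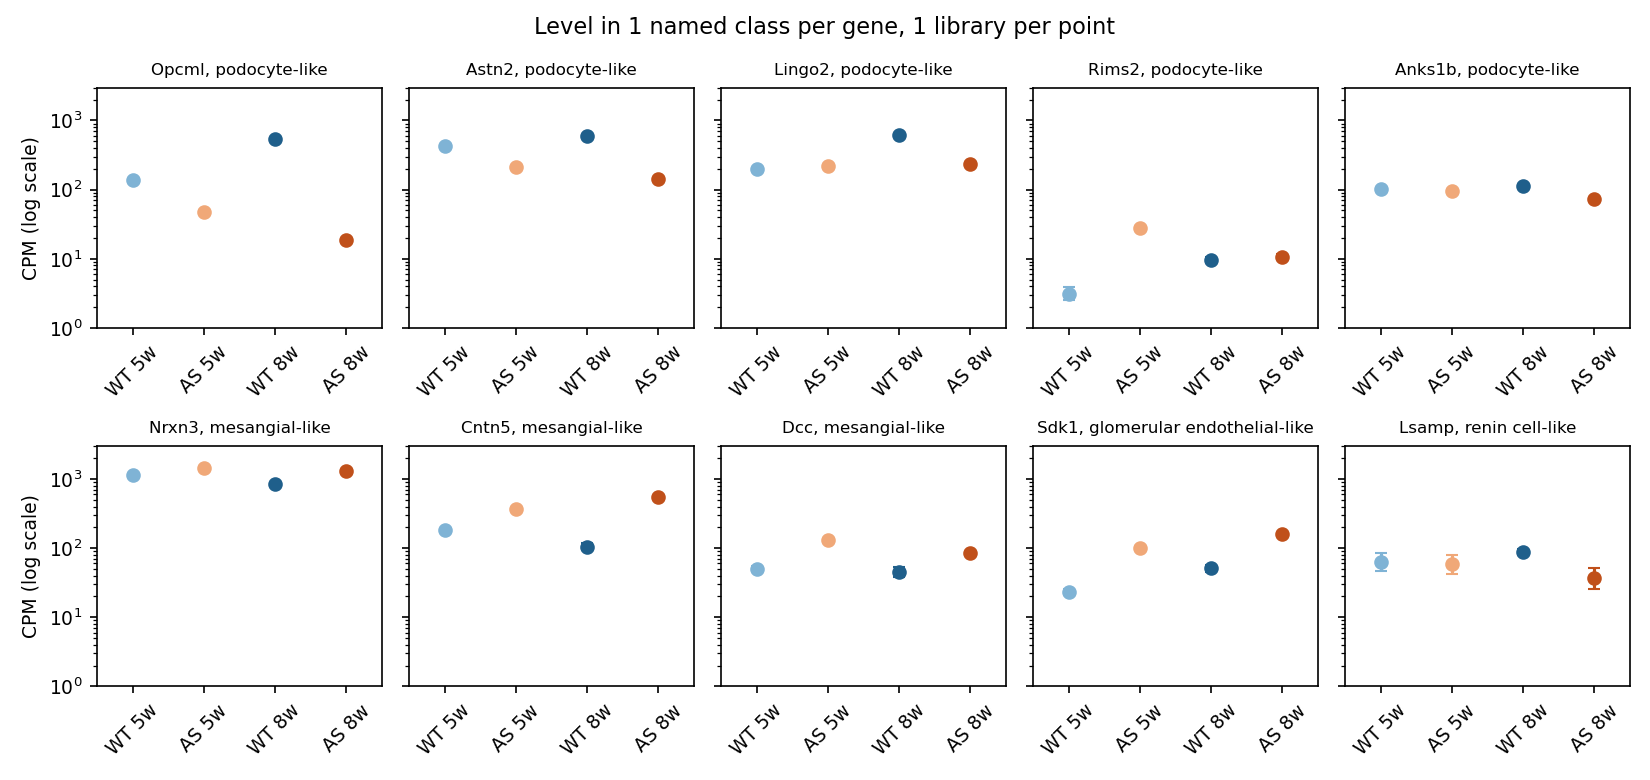
Level in CPM on a log axis in the 4 libraries, 1 panel per gene in the named class, with 95% Poisson intervals (counting error only, often smaller than the point). Opcml runs from 18.5 to 531 CPM in podocyte-like cells and Cntn5 from 106 to 543 CPM in mesangial-like cells, whereas Anks1b stays between 72.6 and 112 CPM.

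In podocyte-like cells, 5 of the 10 genes passed the floor of 30 UMIs and 20 CPM at 5 weeks, of which Opcml and Astn2 were lower and Rims2 higher in AS by at least 1.5-fold. Among all 6788 genes past the floor, 3.62% were past 1.5-fold in either direction. At 8 weeks 4 genes passed the floor and all 4 (Opcml, Astn2, Lingo2 and Anks1b) were lower, where 7.44% of 6960 genes were past 1.5-fold and 3.39% were so in the lower direction. The genes were chosen on these contrasts, so nothing is read from the counts. With the other WT library, the 8-week count was 2 lower. Long genes as a group moved too: the median ratio of other genes of 500 kb or more was -0.22 over 60 genes at 5 weeks and -0.35 over 64 genes at 8 weeks, against -0.003 and -0.039 over all genes. Relative to those medians Opcml was at -1.24 and -4.16 and Astn2 at -0.79 and -1.64, while Anks1b was at 0.09 and -0.23. Malat1, a nuclear RNA, was at 41190 CPM in WT against 36190 CPM in AS podocyte-like cells at 5 weeks, with 36260 and 25480 CPM at 8 weeks. The part of nuclear RNA in these differences was not tested.

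**Figure D3:**
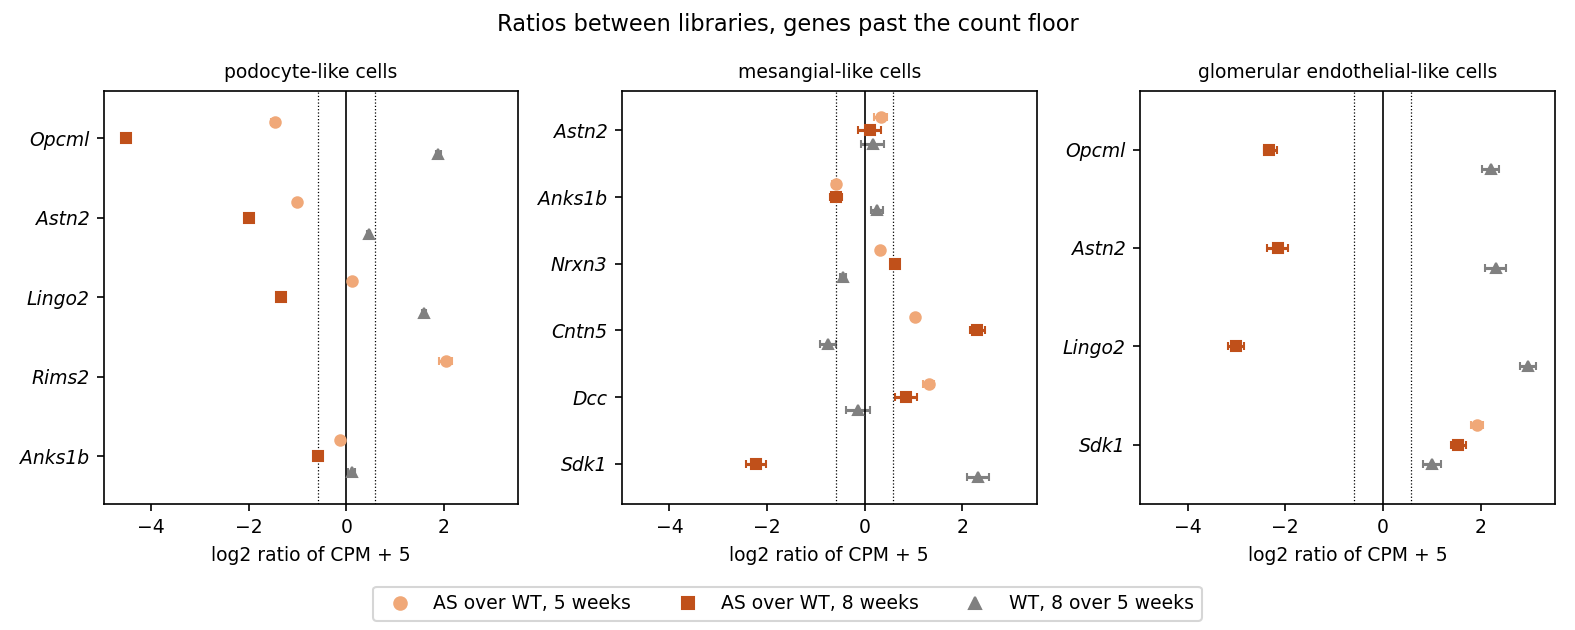
Log2 ratio of (CPM + 5) between 2 libraries for the genes past the count floor in 3 classes, with 95% counting intervals: AS over WT at 5 weeks (circles), AS over WT at 8 weeks (squares) and WT at 8 over 5 weeks (triangles). Dotted lines mark 1.5-fold. For Opcml and Lingo2 in podocyte-like cells the triangle lies at 1.89 and 1.58, as far from 0 as several genotype ratios.

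Nrxn3 in mesangial-like cells was at 1160.0 CPM in WT against 1452 CPM in AS at 5 weeks, then at 852 CPM in WT against 1321 CPM in AS at 8 weeks. Both AS libraries lay above both WT libraries. The ratio was 0.32 (0.30 to 0.35) at 5 weeks and 0.63 (0.57 to 0.69) at 8 weeks, and 0.19 at 8 weeks against the 5-week WT library. In podocyte-like and glomerular endothelial-like cells the level was 1.11 to 3.57 CPM. In renin cell-like cells it was at 31.6 CPM in WT against 102.5 CPM in AS at 5 weeks, then at 1.41 CPM and 67.5 CPM at 8 weeks, on 6 to 70 UMIs. AS was the higher there too, and the part of carried-over mesangial RNA was not tested. In arterial endothelial-like cells at 8 weeks WT was the higher, at 33.4 CPM on 66 UMIs against 0 CPM in AS. At 5 weeks AS was the higher in those cells, at 17.5 CPM against 1.97 CPM in WT, both below the floor. Nrxn3 was followed most closely by Mrc1 (r 0.98), Pdgfra (0.97) and Grip1 (0.96).

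Cntn5 in mesangial-like cells was at 180.3 CPM in WT against 373 CPM in AS at 5 weeks, then at 106 CPM in WT against 543 CPM in AS at 8 weeks. Both AS libraries lay above both WT libraries. AS was higher by 1.03 (0.96 to 1.09) at 5 weeks and by 2.31 (2.16 to 2.47) at 8 weeks, and by 1.78 and 1.57 with the other WT library. Outside this class it reached at most 25.9 CPM (myeloid-like cells, AS at 8 weeks), with 0.62 to 1.64 CPM in podocyte-like and glomerular endothelial-like cells. Its closest genes were Spink8 (r 0.98), Frmd3 (0.98) and Rab3c (0.97), and with Nrxn3 it reached 0.93.

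After thinning, Cntn5 was found in 19.8% of WT against 40.5% of AS mesangial-like cells at 5 weeks, and in 13.3% of WT against 44.9% of AS cells at 8 weeks. Positive cells held a mean of 4.10 UMIs in WT against 4.18 in AS at 5 weeks, then 3.03 in WT against 5.31 in AS at 8 weeks. Unthinned shares were 28.4%, 48.9%, 14.6% and 50.4%, and podocyte-like cells held a thinned share of 0.13% to 0.56%. At 5 weeks the count per positive cell was thus nearly alike, while the share of positive cells was higher in AS. Compared with 186 to 1253 genes at a like mean in each library, at most 1 had a smaller share of cells than Cntn5. For Nrxn3, found in 45.8% to 87.3% of cells, none of 43 to 99 such genes did.

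Dcc in mesangial-like cells was at 50.4 CPM in WT against 133 CPM in AS at 5 weeks, then at 45.3 CPM in WT against 85.4 CPM in AS at 8 weeks. AS was higher by 1.31 (1.2 to 1.43) and by 0.84 (0.62 to 1.08). A thinned cell held a UMI in 8.37% of WT against 19.4% of AS cells at 5 weeks, and in 7.56% and 12.5% at 8 weeks, again fewer than any of 894 to 1598 genes at a like mean. Unthinned shares were 11.7%, 27.8%, 9.29% and 16.2%, and podocyte-like cells held a thinned share of at most 0.33%. With each cell weighted alike the ratios were 0.82 and 0.56, the second under 1.5-fold, and clustering without the 10 genes gave 0.57 at 8 weeks. In renin cell-like cells Dcc was at 115 CPM in WT against 103 CPM in AS at 5 weeks, then at 107 CPM and 144 CPM at 8 weeks. Those intervals overlap at 5 weeks (91.7 to 141 and 79.9 to 129.5 CPM), and neither ratio was past 1.5-fold. So the higher AS level seen in mesangial-like cells was not seen at 5 weeks in renin cell-like cells, a difference that was not tested. Dcc was followed most closely by Cdh2 (r 0.97), Steap4 (0.96) and Ntrk2 (0.96).

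**Figure D4:**
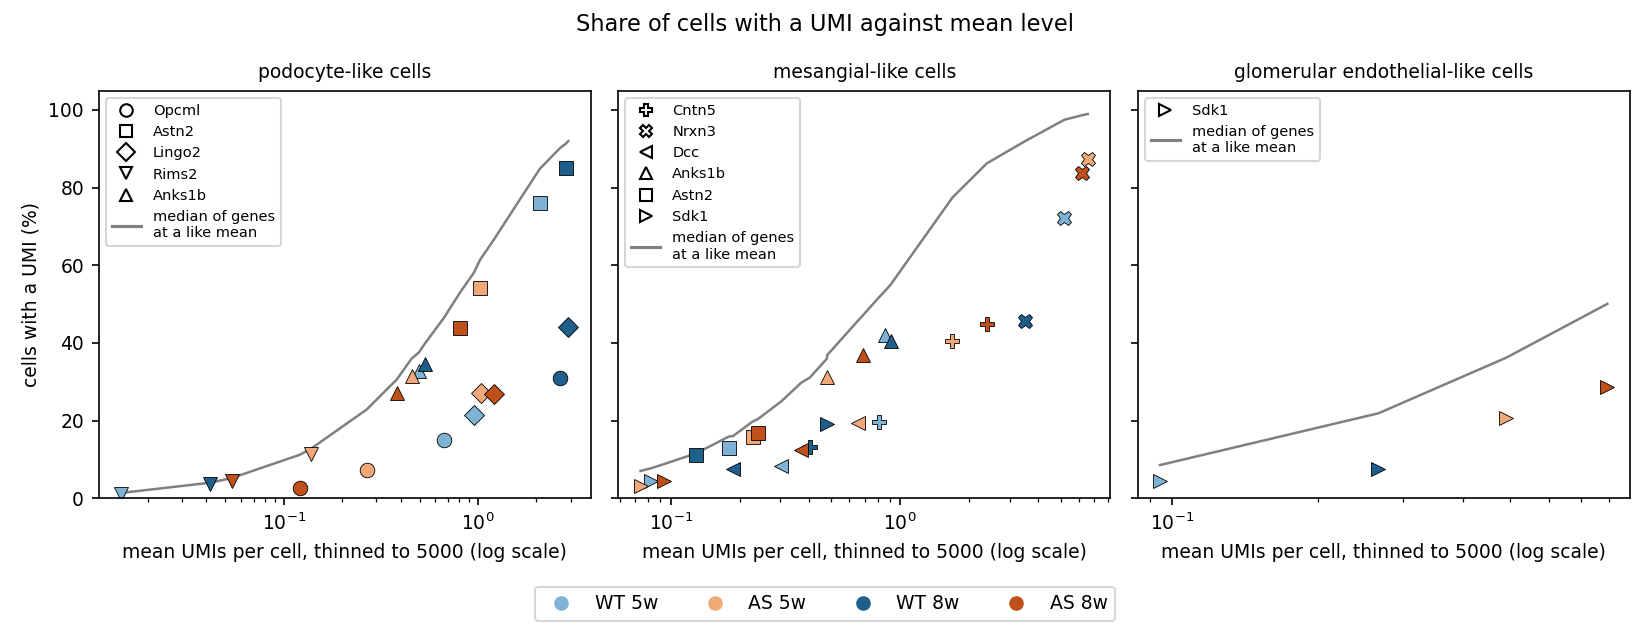
Share of cells with a UMI (percent) against mean UMIs per cell (log axis), both after thinning each cell to 5000 UMIs, with 1 point per gene and library (colour). The grey line is the median share of genes whose mean lies within 1.25-fold. All points lie below the line. The gap is widest for Opcml in podocyte-like cells of WT at 8 weeks (31.0% against 90.3%). In the same library Astn2 is at 85.1% against 91.3% and Rims2 at 3.66% against 4.02% in podocyte-like cells. In its mesangial-like cells Anks1b is at 40.4% against 55.1% and Sdk1 at 19.1% against 36.0%.

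The mesangial-like class fell into 2 subsets whose shares differed between libraries. Clusters made without the 10 genes split it into a main subset and a subset led by Col12a1, Enpp2, Adarb2 and Abcc9. The second made up 10.7% of WT against 6.39% of AS mesangial-like cells at 5 weeks, but 49.3% of WT (138 of 280 cells) and 6.43% of AS cells at 8 weeks. The Col12a1-led cells held mesangial markers (10030 to 13680 CPM in sum) and more renin cell markers than the main subset (3370 to 6150 against 2127 to 2477 CPM). In the clustering without the 10 genes their cluster was left unnamed, and these cells count as mesangial-like from the main clustering.

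Sdk1 was at 119, 139, 213 and 212 CPM in the Col12a1-led subset (WT and AS at 5 weeks, then WT and AS at 8 weeks), and at 8.23, 6.63, 10.6 and 8.76 CPM in the main subset. Nrxn3 and Cntn5 went the other way. Cntn5 was at 3.14, 75.3, 3.47 and 41.1 CPM in the Col12a1-led subset and at 189, 380, 168 and 558 CPM in the main one. Nrxn3 was at 130, 755, 255 and 569 CPM and at 1210, 1468, 1215 and 1343 CPM. Within either subset Cntn5 was higher in the AS than in the WT library at both ages. Its low WT levels in the Col12a1-led subset rest on 72 cells at 5 weeks and 138 at 8 weeks. Anks1b at 8 weeks was at 258 CPM in WT against 134 CPM in AS in the main subset, but at 112 and 156 CPM in the Col12a1-led one. Within the main subset Nrxn3 differed by less than 1.25-fold between any 2 libraries, where the WT value at 8 weeks rests on the 142 cells that are also in the mesangial-like class. The whole cluster behind that subset, with 208 WT cells at 8 weeks, held Nrxn3 at 798 CPM in WT against 1341 CPM in AS at that age. Dcc in the main subset was at 51.3 and 135 CPM at 5 weeks, with 63.4 and 87.4 CPM at 8 weeks. Sdk1 in the class as a whole was at 13.4 CPM in WT against 9.59 CPM in AS at 5 weeks, then at 87.1 CPM in WT against 14.7 CPM in AS at 8 weeks. The 8-week ratio was -2.23, beside a Col12a1-led share of 49.3% in WT and 6.43% in AS. Within each subset the 8-week libraries were within 1.25-fold of each other, but the whole cluster behind the main subset held 19.4 CPM in WT against 9.26 CPM in AS. The part of subset shares in the ratio was not tested.

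**Figure D5:**
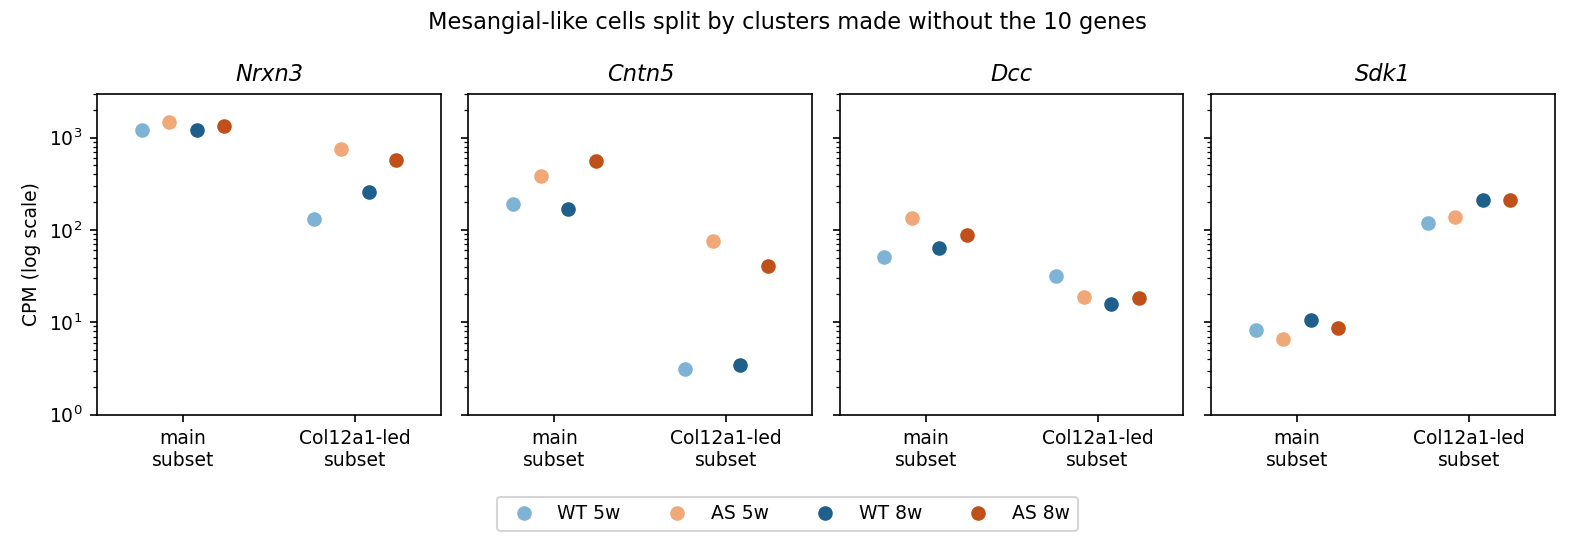
Level in CPM (log axis) of 4 genes in the main and the Col12a1-led subset of mesangial-like cells, 1 point per library. Sdk1 is between 6.63 and 10.6 CPM in the main subset and between 119 and 213 CPM in the Col12a1-led subset, and Cntn5 is higher in both AS libraries (orange) than in both WT libraries (blue) in each subset.

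In mesangial-like cells 5 of the 10 genes passed the floor at 5 weeks, with Cntn5 and Dcc higher and Anks1b lower past 1.5-fold, where 1.75% of 7385 genes were past it in either direction. At 8 weeks 6 passed, with Cntn5, Dcc and Nrxn3 higher and Sdk1 lower, where 7.19% of 7693 genes were past it. Clustering without the 10 genes left 2 at 8 weeks, both higher. Other long genes at 8 weeks were lower past 1.5-fold in 31 of 94 cases and higher in 1, with a median of -0.23, whereas Cntn5, Dcc and Nrxn3 were higher.

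Sdk1 was measured in glomerular endothelial-like cells at 23.0 CPM in WT against 102 CPM in AS at 5 weeks, then at 51.3 CPM in WT against 159 CPM in AS at 8 weeks. Both AS libraries lay above both WT libraries, and in each genotype the 8-week library lay above the 5-week one. AS was higher by 1.93 (1.81 to 2.06) at 5 weeks and by 1.54 (1.39 to 1.70) at 8 weeks, or by 0.89 at 8 weeks with doublets kept. The higher AS level was found in each endothelial cluster made without the 10 genes that held at least 50 cells of both libraries of an age. In the cluster led by Car8 and Sost it was 35.4 against 149.7 CPM at 5 weeks and 106 against 209 CPM at 8 weeks, WT first. In that led by Gm14226 and Erc2 it was 11.9 against 51.2 CPM and 16.9 against 63.6 CPM. The cluster led by Adamts16 gave 15.8 against 98.5 CPM at 5 weeks, and that led by Dlk1 gave 39.1 against 176 CPM at 8 weeks.

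After thinning, Sdk1 was found in 4.40% of WT against 20.7% of AS endothelial-like cells at 5 weeks, and in 7.63% of WT against 28.8% of AS cells at 8 weeks. Positive cells held a mean of 2.15 and 2.37 UMIs at 5 weeks and 3.5 and 2.76 UMIs at 8 weeks, so the share of cells was higher in AS at both ages, and the count per positive cell was not at 8 weeks. Unthinned shares were 5.38%, 21.9%, 8.60% and 30.5%, and 374 to 1013 cells per library were too shallow to thin. In podocyte-like cells, taken as background, Sdk1 was at 0.40 to 0.93 CPM, in a thinned share of 0.14% to 0.41% of cells. B-like cells held Sdk1 at 6.21 CPM in WT against 86.0 CPM in AS at 5 weeks and at 58.6 CPM in AS at 8 weeks, and myeloid-like cells at 67.6 and 84.9 CPM in AS at 5 and 8 weeks. These rest on 18 to 59 UMIs in AS. The highest Sdk1 level of any class was in the Pcp4-led cluster of the WT library at 8 weeks, at 355 CPM on 1584 UMIs, against 68.4 CPM in AS on 86 UMIs. That ratio of -2.29 (-2.60 to -2.00) runs opposite to the one in glomerular endothelial-like cells. Many genes differed in that cluster at 8 weeks: 26.2% of 8163 genes were past 1.5-fold, 17.8% in the lower direction. Other genes of 500 kb or more were lower past 1.5-fold in 67 of 120 cases there, with a median of -0.91. Arterial endothelial-like cells stayed at 0.99 to 16.5 CPM. For Sdk1 the closest were Stag2 (r 0.83), Cd40 (0.81) and Kcnh1 (0.80).

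At 5 weeks Sdk1 was the 1 gene of the 10 past the floor in glomerular endothelial-like cells, and 1.71% of 7309 genes there were past 1.5-fold. At 8 weeks 4 passed the floor, with Sdk1 higher and Opcml, Lingo2 and Astn2 lower, where 4.84% of 7626 genes were past it. Those 3 were at 22.6, 46.3 and 35.1 CPM in the WT library and at 0.48, 1.32 and 3.97 CPM in AS. In that WT library they were 4.25%, 7.63% and 5.97% of their podocyte-like levels. The 10 podocyte markers, a measure of free or carried-over podocyte RNA, were in the same endothelial-like cells at a median of 7.35% of theirs, and at 1.06% to 2.62% in the other libraries. The levels were uneven among the endothelial clusters of that library: Lingo2 was at 80.0 CPM in the Dlk1-led cluster against 9.15 and 6.48 CPM in the Car8-led and Gm14226-led ones, and Astn2 at 63.4 against 7.19 and 10.4 CPM. The part of free RNA in these 3 ratios was not tested.

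Lsamp, an IgLON like Opcml, was near 0 in podocyte-like cells. In renin cell-like cells it was at 63.2 CPM in WT against 58.6 CPM in AS at 5 weeks, then at 88.4 CPM in WT against 36.8 CPM in AS at 8 weeks. The 5-week intervals overlap (46.6 to 83.8 and 41.8 to 79.8 CPM), and the 8-week ratio was -1.16 (-1.62 to -0.71) on 375 and 36 UMIs. Among all genes past the floor in renin cell-like cells, 11.5% of 5100 were past 1.5-fold at 5 weeks and 6.23% of 7339 at 8 weeks. The 6 renin cell markers differed as well: their sum was 19770 CPM in WT against 14840 CPM in AS at 5 weeks, with 23570 and 13680 CPM at 8 weeks, and their part in the result was not tested. Smooth muscle-like cells held Lsamp at 11.7 to 38.6 CPM, and podocyte-like and mesangial-like cells at 1.10 CPM or less. Closest to Lsamp were Alx1 (r 0.98), Olfr560 (0.98) and Drd1 (0.98).

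Most relatives of the 10 genes lay below the count floor in these cells. Of the 5 IgLON genes, Opcml was the 1 past the floor in podocyte-like cells, and Iglon5 was the 1 in mesangial-like cells (52.6 and 53.5 CPM in WT and AS at 5 weeks, 48.3 and 44.7 CPM at 8 weeks). Of 13 contactins and contactin-associated proteins, Cntn5 in mesangial-like cells was the 1 past the floor in any of the 3 main classes. Astn1, the other astrotactin, was found in glomerular endothelial-like cells at 73.6 and 77.2 CPM at 5 weeks, with 41.6 and 59.7 CPM at 8 weeks, WT first, with no genotype ratio past 1.5-fold. It was below the floor in podocyte-like cells, where Astn2 was highest.

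Among 28 neurexins, neuroligins and other trans-synaptic partners, 6 passed the floor in podocyte-like cells. None was past 1.5-fold at 5 weeks, and 2 were lower in AS at 8 weeks: Flrt1 (98.2 CPM in WT against 42.3 CPM in AS) and Tenm3 (112 and 72.5 CPM). Of 20 leucine-rich adhesion genes 2 passed there, and besides Lingo2 it was Ntng2, at 251 and 199 CPM at 5 weeks, with 258 and 141 CPM at 8 weeks, past 1.5-fold at 8 weeks. Of 19 genes of the netrin, DCC and SLIT pathways 6 passed in podocyte-like cells. Unc5b and Unc5c, receptors for netrin, were lower in AS at 5 weeks (24.0 and 11 CPM, 437 and 279.5 CPM), and at 8 weeks Ntn4 was higher (3.06 and 24.6 CPM) and Robo1 lower (43.2 and 26.1 CPM). Dcc itself was at 0.44 CPM or less in podocyte-like cells. In mesangial-like cells 8 of the 19 passed at each age. Dcc was the 1 past 1.5-fold in the higher direction at both ages, and Slit3, a ligand of Robo receptors, was lower at both (72.2 and 30.5 CPM, 71.3 and 44.95 CPM, WT first).

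Of 25 presynaptic release site genes 8 passed the floor in podocyte-like cells at 5 weeks, and Rims2 was the 1 past 1.5-fold. At 8 weeks 7 passed and none was past it. Rims1 in mesangial-like cells was lower in AS at both ages (20.8 and 11.7 CPM, 41.1 and 13.3 CPM), and those 8-week levels share the uneven Col12a1-led subset. Anks1, the close relative of Anks1b, was at 101 CPM in WT against 71.0 CPM in AS podocyte-like cells at 5 weeks, with 83.2 and 43.3 CPM at 8 weeks, past 1.5-fold at 8 weeks. Ncam1, an immunoglobulin-type adhesion gene of the podocyte junction list, was lower in AS podocyte-like cells at both ages (136 and 74.4 CPM, 156 and 63.0 CPM). The medians of these lists in podocyte-like cells lay between -0.30 and -0.07 at 5 weeks where 6 or more genes passed, against -0.003 over all genes and -0.22 over long genes. At 8 weeks the same lists ran from -0.42 (netrin pathway) to 0.05 (trans-synaptic), against -0.039 and -0.35. The lists were chosen with earlier results of these data known.

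In mesangial-like cells at 8 weeks several relatives were far higher in the WT library. Ntng1, a lipid-anchored netrin-G protein, was at 126 CPM in WT against 0.048 CPM in AS, on the lower side together with Tenm4 (29.2 and 0.24 CPM) and Tenm3 (388 and 145 CPM), which are teneurins. Kirrel3, a nephrin-like adhesion gene of the immunoglobulin type and a leading gene of the renin cell-like cluster, was at 115 CPM in WT against 11.1 CPM in AS. Of 28 trans-synaptic genes 9 passed the floor at 8 weeks, 1 higher and 2 lower past 1.5-fold, and of 14 junction genes 5 passed, 3 of them lower, where 7.19% of all 7693 genes were past it. The 8-week WT library is the one in which the Col12a1-led subset made up 49.3% of the class, and its part in these gaps was not tested.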

How the data were processed

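Single-cell RNA of glomeruli was measured in 4 10x Genomics libraries. The matrices, as deposited, hold 1 raw UMI count for each gene in each barcode. Their headers name Cell Ranger 9.0.0, and the submitters' processing notes list STAR 2.7.2a, bcl2fastq 2.20.0 and the build GRCm38 (mm10). Library totals are 74356581 to 126118422 counts.

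From these counts, barcodes with 500 or more genes, 1000 or more UMIs and a mitochondrial share of 20% or less stayed in, and doublets were removed with the Scrublet function of Scanpy 1.11.5 (expected rate 6%, calls 2.40% to 6.32%). Cells were clustered (2000 variable genes, 30 components, 15 neighbours, leidenalg 0.10.2, resolution 1), and clusters named from marker lists. Counts were summed per class and library with NumPy 2.4.6 and pandas 2.3.3 under Python 3.11.15. Intervals from SciPy 1.17.1 are exact Poisson for levels and conditional binomial for ratios, at 95%, and cover counting error only. Ratios use log2(CPM + 5), and a gene counts as past 1.5-fold only with 30 UMIs and 20 CPM in 1 of the 2 libraries and 50 cells in each. Figures were drawn with Matplotlib 3.10.9. The call past 1.5-fold alone was tested on simulated counts, made from the 5-week levels of the 3 main classes.

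The 10 genes, the marker lists and the lists of relatives were chosen with earlier results of these data known. All 10 are named, with the 3 genes whose log2(CPM + 5) correlated most with each, and in each list of relatives the 2 genes of largest absolute ratio in a comparison were open to naming. Alternatives were the pseudocount, no count floor, doublets kept, resolution 0.5 and 2, at most 10% mitochondrial UMIs, median-ratio scaling, cells weighted alike and exchange of the 2 WT libraries.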

Additional observations from a re-analysis of the deposited data

Results flagged for a closer look

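Sdk1 at 8 weeks had ratios of opposite sign in 2 classes. Its log2 ratio of AS to WT was 1.54 in glomerular endothelial-like cells (51.3 CPM in WT and 159 CPM in AS) and -2.23 in mesangial-like cells (87.1 CPM in WT and 14.7 CPM in AS). With 1 library per group the difference between the classes was not tested. In mesangial-like cells the Col12a1-led subset, which holds Sdk1 at 119 to 213 CPM, made up 49.3% of the WT and 6.43% of the AS cells at 8 weeks. Within that subset the 8-week levels were 213 CPM in WT against 212 CPM in AS, and in the main subset 10.6 against 8.76 CPM. The whole cluster behind the main subset held 19.4 CPM in WT against 9.26 CPM in AS. The mesangial-like ratio was -0.72 with doublets kept and -0.52 at resolution 0.5, and it depended on the WT library used. With doublets kept the endothelial-like ratio was 0.89. The part of subset shares was not tested. In the Pcp4-led cluster, which holds the highest level, the 8-week ratio was -2.29 (355 CPM in WT against 68.4 CPM in AS). Of 8163 genes past the floor in that cluster, 26.2% were past 1.5-fold, 17.8% in the lower direction.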

How the results depend on the processing

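No paired analysis was possible because each group has 1 library. Of 19 ratios past 1.5-fold in the 3 main classes, 12 stayed past it by size alone, with no count floor applied, and 16 kept their direction when the WT libraries were exchanged. Under each other alternative run, 17 to 19 stayed past it by size alone and 19 kept their direction. The counts that follow apply the floor, and several are smaller. With the other WT library Lingo2 in podocyte-like cells at 8 weeks became 0.25, Astn2 in endothelial-like cells at 8 weeks 0.16 and Sdk1 in mesangial-like cells at 8 weeks 0.10. The counts of genes past 1.5-fold became 2 for podocyte-like cells at 8 weeks, 4 and 1 for endothelial-like cells at 5 and 8 weeks, and 5 and 2 for mesangial-like cells. The endothelial-like count at 8 weeks was also 1 with doublets kept, at resolution 0.5 and at 10% mitochondrial UMIs, and Sdk1 there was 0.89 with doublets kept. The mesangial-like count at 8 weeks was 2 at resolution 0.5 and when clustered without the 10 genes, and Sdk1 there was -0.52 to -0.82 under those 2 and with doublets kept or 10% mitochondrial UMIs. The cause was not tested. Clustering without the 10 genes and ratios relative to long genes were chosen after seeing the data. Depth limits the small classes: levels of the 10 genes rest on 0 to 455 UMIs in renin cell-like cells and on 0 to 57 in B-like cells.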
